A study of Solanum lycopersicum with 21 samples.

Results

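NIM1, NML1 and NML2 are tomato genes of NPR1 type, regulators that act downstream of salicylic acid (SA) in plant defense. They were chosen by name: each of the 3 symbols NIM1, NML1 and NML2 occurs once in the annotation of the Affymetrix tomato gene array that was used, which gave 3 probe sets of 67795. Of 11 names of the NPR family searched, these 3 matched, and 44431 probe sets carry no symbol, so other family members may be on the array unnamed. In the current RefSeq annotation of tomato, NIM1 carries the symbol NPR1 and lies on chromosome 7, NML1 lies on chromosome 2, and NML2 lies on chromosome 7. No coordinates are printed, since the sources read here do not name a genome build for the array.

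Proteins of NPR1 type carry a BTB/POZ domain and ankyrin repeats, which serve contacts between proteins. In Arabidopsis, SA lets NPR1 enter the nucleus, where it acts with bZIP transcription factors of the TGA class at promoters of pathogenesis-related (PR) genes. The Arabidopsis relatives NPR3 and NPR4 also bind SA, and NPR1 takes part there in the damping of jasmonate responses by SA. NIM1 stands for noninducible immunity, another name of NPR1, and NML for NIM1-like.

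Leaves of tomato cv. Rio Grande were collected 24 h after treatment, and 21 arrays were hybridized, 3 in each of 7 groups. Each array held RNA pooled from 10 plants, which had been transplanted at 2 weeks and were treated 2 weeks later. In experiment 1, plants received the hybrid antimicrobial peptide BP178 at 125 µM, SA at 2.5 mM, jasmonic acid (JA) at 2.5 mM, ethylene from 1 mM ethephon with 2.5 mM phosphate buffer, or water (mock-sprayed, the non-treated control, NTC). In experiment 2, plants received flg15, a fragment of bacterial flagellin, at 125 µM, or water (NTC of experiment 2). The methods describe a closed chamber for ethylene while its samples are labelled Et-sprayed, so enclosure and ethylene cannot be told apart in that group.

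Values are log2 intensities after Robust Multichip Average (RMA) processing by the authors. Array medians lay between 2.63 and 2.85, and arrays of a group correlated with each other at 0.975 to 0.988 over all probe sets. Of 4 leaf photosynthesis markers matched, all lay between 8.19 and 12.6 in every array, and of 6 ripe fruit markers 4 stayed at or below 2.98, while Psy1 reached 8.54 and tEG3 4.52. The lowest of the 63 values of NIM1, NML1 and NML2 was 4.02, above every array median, and 74.8% of all values in the table lie below it. In a mixed tissue, fewer cells that use a gene and less RNA per cell cannot be told apart. How far the probes of 1 gene also bind transcripts of the other 2 was not tested.

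For each treatment the reference was the NTC run beside it. Below, called means an adjusted p under 0.05 (limma, Benjamini-Hochberg over all 67795 probe sets) together with a fold change (FC) of 2 or more, or of 0.5 or less. Results that pass the adjusted p without that FC are named as such. The p-values measure the spread between arrays of pooled plants, and nothing in the labels says whether the 3 pools of a group were grown or sprayed apart.

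The study also designed a primer pair, for quantitative PCR after reverse transcription, for a gene that it lists as NPR1 protein, with the locus identifier Solyc02g069310. Its text does not name this gene among those it reports as overexpressed in that assay after BP178 or flg15. The pair is shown because it tells which NPR1-type locus was aimed at outside the arrays. The identifier places that locus on chromosome 2, the chromosome of NML1, whereas NIM1, the gene that RefSeq calls NPR1, lies on chromosome 7. Both primers are 20 bases long, and the array annotation used here does not pair the identifier with a probe set.
LeNPR1-f: aaaagatcaagcggaggcga
LeNPR1-r: ctttgacacttgcaccgtcg

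SA raised NIM1 and NML1 2.6- to 2.8-fold, and NML2 rose 1.69-fold. NIM1 measured 5.05, 5.41 and 5.29 in the 3 NTC arrays of experiment 1 and 6.46, 6.81 and 6.91 after SA. The SA arrays did not overlap with NTC and were the highest of all 21 arrays. The group means were 5.25 ± 0.18 (SD, n = 3) and 6.73 ± 0.24 (SD, n = 3), a log2 change of 1.47 (SE 0.16, 95% interval 1.13 to 1.81, FC 2.78, adjusted p = 1.73e-06 from limma).

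NML1 measured 6.09, 6.11 and 6.16 in NTC and 7.31, 7.67 and 7.55 after SA. These SA arrays too were the highest of the 21. The mean went from 6.12 ± 0.03 (SD, n = 3) to 7.51 ± 0.19 (SD, n = 3), a log2 change of 1.39 (SE 0.13, 95% interval 1.12 to 1.66, FC 2.62, adjusted p = 1.47e-07 from limma). NML1 had the tightest NTC arrays of the 3 genes.

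NML2 measured 7.70, 7.61 and 8.03 in NTC and 8.45, 8.60 and 8.56 after SA. The groups did not overlap, and the log2 change was 0.76 (SE 0.15, 95% interval 0.45 to 1.06, FC 1.69). It passed the adjusted p (0.00101, limma) without reaching an FC of 2, so NML2 rose after SA without being called. Thus 2 of the 3 genes were called after SA, where 4.38% of all probe sets were called, and 3 of 3 passed the adjusted p alone, where 10.1% did. A larger absolute change than that of NIM1 was found in 2.16% of probe sets, than that of NML1 in 2.42% and than that of NML2 in 7.16%.

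Markers of other processes also differed between the hormone treatments and NTC. The summed level of the 4 markers (log2 of summed intensities) was 12.77 to 12.92 after SA and 13.22 to 13.28 in NTC of experiment 1, and CAB4, a chlorophyll-binding protein, had a log2 change of -0.60 (adjusted p = 0.000855, limma), whereas the other 3 did not pass. After JA the summed leaf level was 12.90 to 13.13, also below NTC without overlap, with no single marker passing, and after ethylene it was 13.21 to 13.32. The summed level of the 6 fruit markers, most of it Psy1, was 7.36 to 7.51 after SA and 6.96 to 7.12 after JA. It was 7.30 to 7.68 after ethylene, and 8.27 to 8.64 in NTC. Of the dim markers, the fruit gene ACS2 had a log2 change of 0.84 after SA, which passed the adjusted p (0.000187, limma) without reaching an FC of 2. The root gene RSI-1 had log2 changes of -0.99 after SA, -0.81 after JA and -0.83 after ethylene (adjusted p = 0.00155, 0.0114 and 0.0155, limma). The part of these shifts in the results for NIM1, NML1 and NML2 was not tested.

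**Figure D1:**
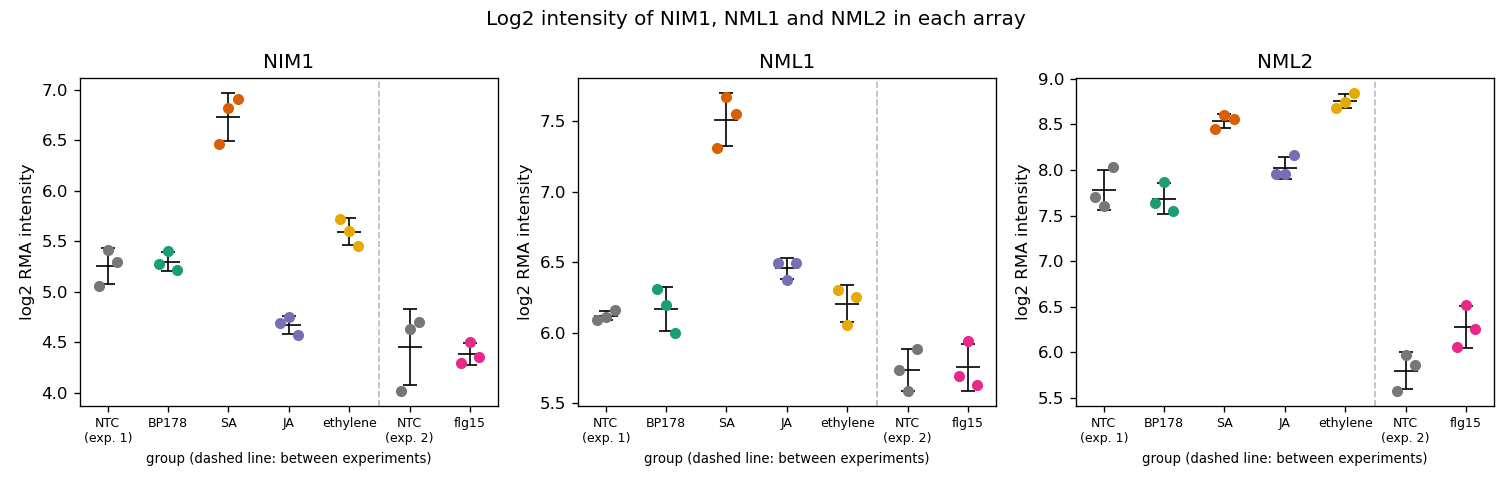
Log2 RMA intensity (y axis) of NIM1, NML1 and NML2 in each of the 7 groups (x axis). Points are single arrays, bars are the mean ± SD (n = 3), and the dashed line separates the experiments. NIM1 and NML1 are highest in the SA arrays (6.46 to 6.91 and 7.31 to 7.67), NML2 is highest after ethylene (8.68 to 8.84), and all NML2 values of experiment 2 lie at or below 6.52.

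After JA the 3 genes did not move together. NIM1 measured 4.69, 4.75 and 4.57, below each of the 3 NTC arrays. The mean of 4.67 ± 0.09 (SD, n = 3) was a log2 change of -0.58 (SE 0.16, 95% interval -0.93 to -0.24, FC 0.67), which passed the adjusted p (0.0275, limma) without reaching an FC of 0.5. The log2 change lay between -0.68 and -0.50 with 1 array left out, but the adjusted p was above 0.05 in 4 of those 6 fits (all but those without NTC replicate 1 or JA replicate 2) and reached 0.145 without NTC replicate 2. It was also above 0.05 after median centring (0.0738), and with the NTC of both experiments together the log2 change was -0.18 (adjusted p = 0.757).

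NML1 measured 6.50, 6.37 and 6.50 after JA, above each NTC array. Its log2 change of 0.33 (95% interval 0.07 to 0.60) did not pass (adjusted p = 0.143, limma). NML2 measured 7.95, 7.95 and 8.16 after JA and overlapped with NTC (log2 change 0.24, 95% interval -0.06 to 0.55, adjusted p = 0.452). No gene of the 3 was called after JA, where 3.34% of all probe sets were called, and 1 passed the adjusted p alone, where 8.48% did.

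After ethylene, NML2 alone of the 3 passed the adjusted p. NML2 measured 8.68, 8.75 and 8.84 after ethylene, above all other arrays of the series. The mean of 8.76 ± 0.08 (SD, n = 3) was a log2 change of 0.98 (SE 0.15, 95% interval 0.67 to 1.28, adjusted p = 0.000198 from limma). The FC of 1.97 lies just under the threshold, and the interval includes FC values on either side of it. The transcript was called without NTC replicate 3 (log2 change 1.10), without ethylene replicate 1 (1.01) and after median centring (1.04).

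NIM1 measured 5.72, 5.60 and 5.45 after ethylene, above each NTC array by a narrow margin. Its log2 change of 0.34 (95% interval -0.001 to 0.68) did not pass (adjusted p = 0.351, limma). NML1 measured 6.30, 6.06 and 6.26 and overlapped with NTC (log2 change 0.08, 95% interval -0.18 to 0.35, adjusted p = 0.871). After ethylene 0 of the 3 genes were called and 1 passed the adjusted p alone, against 1.85% and 4.58% of all probe sets.

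Neither peptide gave a call in these genes. After BP178, NIM1 measured 5.27, 5.40 and 5.22, NML1 6.31, 6.20 and 6.00, and NML2 7.64, 7.87 and 7.55, all overlapping with NTC. The log2 changes were 0.04 for NIM1 (95% interval -0.30 to 0.38), 0.05 for NML1 (-0.22 to 0.32) and -0.09 for NML2 (-0.40 to 0.21), with adjusted p between 0.964 and 0.989 (limma). None of these intervals reaches a log2 change of 1. Of all probe sets 0.137% were called after BP178, and 0.204% passed the adjusted p alone.

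After flg15, NIM1 measured 4.29, 4.5 and 4.35 beside 4.02, 4.63 and 4.70 in the NTC of experiment 2. NML1 measured 5.69, 5.94 and 5.63 beside 5.74, 5.59 and 5.89. Both genes overlapped with their NTC, with log2 changes of -0.07 (95% interval -0.41 to 0.27) and 0.02 (95% interval -0.25 to 0.28) and adjusted p of 0.926 and 0.980 (limma).

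NML2 measured 6.06, 6.52 and 6.25 after flg15 beside 5.58, 5.97 and 5.86 in NTC. The flg15 arrays lay above those of NTC, but the log2 change of 0.48 (SE 0.15, 95% interval 0.17 to 0.78) did not pass (unadjusted p = 0.00392, adjusted p = 0.181, limma). After quantile normalization the change was 0.62 and its adjusted p was 0.0346. Of all probe sets 0.257% were called after flg15, and 0.465% passed the adjusted p alone.

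The BP178 and flg15 responses were compared by the difference of both changes. For NML2 this difference was -0.57 (SE 0.21, 95% interval -0.998 to -0.139), higher after flg15, and did not pass (adjusted p = 0.380, limma). It was 0.11 for NIM1 (95% interval -0.37 to 0.59) and 0.03 for NML1 (95% interval -0.35 to 0.41), with adjusted p of 0.923 and 0.976. Over all probe sets 0.0870% passed this test of the difference.

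**Figure D2:**
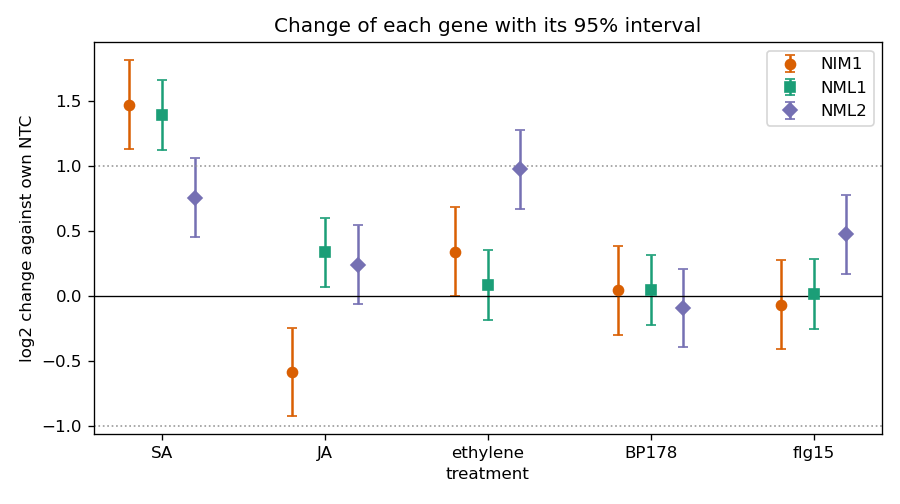
Log2 change against the NTC of the same experiment (y axis) for NIM1, NML1 and NML2 after each treatment (x axis). Points are limma estimates with 95% intervals, and dotted lines mark the FC thresholds of 2 and 0.5. The intervals of NIM1 and NML1 after SA lie above a log2 change of 1, that of NML2 after ethylene spans 1 (0.67 to 1.28), and that of NIM1 after JA lies below 0.

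The treatments of experiment 1 were also compared directly with each other, which needs no NTC, in 6 pairs for each gene. Of these 18 comparisons 7 were called, and 12, these 7 among them, passed the adjusted p with or without the FC. Between 1.49% and 4.61% of all probe sets were called in each pair. The share passing the adjusted p without a minimum FC was not computed for these pairs. The printed shares therefore apply to the 7 calls, and the count of 12 has no share to be read against. NIM1 was 4.16-fold higher after SA than after JA (log2 difference 2.06, SE 0.16, adjusted p = 1.58e-08 from limma), the widest gap of the 18. For NML1 the same difference was 1.06 (SE 0.13, FC 2.08, adjusted p = 6.26e-06), and it was 0.97, below the FC threshold, without SA replicate 2. For NML2 it was 0.51 (FC 1.43, adjusted p = 0.0293), not called. In SA against JA 2 of the 3 genes were called, beside 3.77% of all probe sets.

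SA against ethylene separated the genes in another way. NIM1 was higher after SA by 1.13 on the log2 scale (SE 0.16, FC 2.19, adjusted p = 4.52e-05, limma) and NML1 by 1.31 (SE 0.13, FC 2.47, adjusted p = 3.30e-07). NML2 had a difference of -0.22 (95% interval -0.52 to 0.08, adjusted p = 0.439). Its ethylene arrays lay above its SA arrays without overlap, but the difference did not pass. Here 4.61% of all probe sets were called.

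Against BP178, SA gave 1.43 for NIM1, 1.34 for NML1 and 0.85 for NML2 on the log2 scale, the first 2 called, where 3.87% of all probe sets were called. Ethylene against BP178 gave a call for NML2 alone of the 3 (log2 difference 1.07, SE 0.15, FC 2.1, adjusted p = 9.69e-05, limma), where 1.49% of all probe sets were called.

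JA lay below ethylene by 0.92 for NIM1 (adjusted p = 0.000768, limma) and by 0.73 for NML2 (adjusted p = 0.0023), both short of the FC threshold. No NPR1-type gene was called in this pair, where 2.77% of all probe sets were called. JA lay below BP178 by 0.63 for NIM1 (adjusted p = 0.0202, above 0.05 in 4 of 6 fits with 1 array left out). This pair too gave no call in these genes, where 2.76% of all probe sets were called. For NML1 neither pair passed (log2 difference 0.25 and 0.29, adjusted p = 0.324 and 0.257).

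The order of the group means in experiment 1 differed from gene to gene, but most neighbours in these orders were not separated by the test. NIM1 ran from SA through ethylene, BP178 and NTC down to JA. No difference among ethylene, BP178 and NTC passed (adjusted p between 0.351 and 0.989, limma), although the ethylene arrays lay above those of BP178 and NTC without overlap. SA lay above ethylene with a call. JA lay below NTC by the adjusted p alone (0.0275, limma), which was above 0.05 in 4 of 6 fits with 1 array left out. NML1 ran from SA through JA, ethylene and BP178 to NTC, and below SA no pair of neighbours passed (adjusted p between 0.324 and 0.985). NML2 ran from ethylene through SA, JA and NTC to BP178, and of its neighbours SA and JA passed the adjusted p alone (0.0293), which was above 0.05 in 4 of 6 fits with 1 array left out (up to 0.110, without SA replicate 2) and after median centring (0.0737).

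Within each array the log2 value of 1 gene was subtracted from that of another, which shows unequal change and does not rank their levels. After JA the change of NIM1 was lower than that of NML1 by 0.92 and than that of NML2 by 0.83, and the JA and NTC arrays did not overlap in either difference. After SA the change of NIM1 exceeded that of NML1 by 0.08, with overlapping arrays, and that of NML2 by 0.72, without overlap. The change of NML1 after SA exceeded that of NML2 by 0.63, without overlap. After ethylene the change of NML1 was lower than that of NML2 by 0.89 and that of NIM1 was lower by 0.64, each without overlap. After flg15 the change of NIM1 was lower than that of NML2 by 0.54, again without overlap. In a two-sided exact permutation test 3 arrays against 3 cannot give less than p = 0.10, and each of these differences except that of NIM1 and NML1 after SA (p = 0.40) gave that value. The other 7 of the 15 comparisons overlapped and gave p of 0.20 or more. Over the 15 such comparisons the smallest adjusted p was 0.214.

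Of the 3 genes, NML2 had the widest gap between the water controls of the 2 experiments. Its NTC mean was 7.78 ± 0.22 (SD, n = 3) in experiment 1 and 5.80 ± 0.20 (SD, n = 3) in experiment 2, a log2 difference of -1.98 (SE 0.15, FC 0.254, adjusted p = 5.71e-08 from limma). The 15 arrays of experiment 1 ran from 7.55 to 8.84 and the 6 arrays of experiment 2 from 5.58 to 6.52, so no value of NML2 was shared between the experiments. This gap was wider than the change of NML2 after any treatment, and only 0.242% of probe sets had a larger one.

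NIM1 was also lower in the NTC of experiment 2, by 0.80 on the log2 scale (SE 0.16, adjusted p = 0.00451, limma), without a call. NML1 had a difference of -0.38 that did not pass (adjusted p = 0.109), although its NTC arrays did not overlap. Of the 3 genes 1 was called, beside 1.78% of all probe sets. Experiment 2 holds only flg15 and its NTC, so the experiment and whatever else differed between the runs cannot be told apart. Against the NTC of both experiments together, the log2 change of NML2 after ethylene was 1.97, after SA 1.75 and after flg15 -0.51.

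Names of the wider SA pathway that were searched in the array annotation matched few probe sets. Of 15 names of NPR1 partners and TGA factors 2 matched, of 9 names of SA-modifying enzymes 1, and of 18 names of SA response genes 5. None of 14 names of SA synthesis genes and upstream regulators and none of 3 names of cullin 3, a scaffold of the ubiquitin ligase that turns over NPR1 in Arabidopsis, was matched. Of the 8 probe sets, 1 was called higher and 1 lower after SA, 1 higher after JA, 2 higher after ethylene, 1 higher after BP178 and 1 higher after flg15. Over all probe sets the shares called in either direction were 4.38%, 3.34%, 1.85%, 0.137% and 0.257% in that order, and 8 probe sets are too few to set against them.

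NIF1, a bZIP transcription factor annotated as NPR1-interactor protein 1, is the partner in this set. It measured 8.00, 8.02 and 7.77 in the NTC of experiment 1 and 10.60, 10.83 and 10.47 after SA. The SA arrays lay far above all others, with a log2 change of 2.7 (SE 0.23, FC 6.52, adjusted p = 4.83e-08 from limma). After ethylene NIF1 measured 8.99, 8.94 and 9.02, a log2 change of 1.05 (SE 0.23, FC 2.07, adjusted p = 0.00844), and this call was lost without NTC replicate 3.

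NIF1 did not pass after JA (log2 change 0.49, adjusted p = 0.276, limma), BP178 (0.07, adjusted p = 0.987) or flg15 (-0.54, adjusted p = 0.374). Its NTC level was lower in experiment 2 by 0.89 (adjusted p = 0.0279), as in NIM1 and NML2. The other match of this list, GPA1, carries TGA1 as an alias but encodes the alpha subunit of a G protein. It was not called after any treatment.

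Of the SA response genes, LOC543878, which has PR5 as an alias, was lower after SA, where NIM1, NML1 and NIF1 were higher. It measured 4.56, 4.48 and 5.47 in NTC, 3.11, 3.29 and 3.87 after SA, 6.70, 7.53 and 8.2 after JA, and 7.32, 7.45 and 7.20 after ethylene. It fell by 1.41 on the log2 scale after SA (SE 0.36, adjusted p = 0.0127 from limma), and rose by 2.64 after JA (adjusted p = 3.86e-05) and by 2.49 after ethylene (adjusted p = 0.000159). The call after SA was lost without NTC replicate 3, SA replicate 1 or SA replicate 2. LOC543878 did not pass after BP178 (0.98, adjusted p = 0.495, limma) or flg15 (0.62, adjusted p = 0.547). The study reports PR5 genes, given by locus identifier, as raised after BP178 on the arrays, and PR5 also in its quantitative PCR. Whether LOC543878 is among those loci was not checked. Its NTC level was lower in experiment 2 by 2.68 (adjusted p = 9.28e-05), a wider gap than its change after any treatment.

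The other 4 SA response genes were dim. PR1b1, a PR1 protein, measured 2.56, 1.92 and 2.18 in NTC, 3.58, 3.78 and 3.42 after BP178 and 2.69, 3.68 and 2.82 after SA. It was called after BP178 (log2 change 1.37, SE 0.26, adjusted p = 0.0266, limma) and passed the adjusted p alone after SA (0.84, adjusted p = 0.0404). With 1 array left out the BP178 call held in 1 of 6 fits, the one without NTC replicate 1. P4 ran from 1.45 to 2.01 and PR-5 from 1.73 to 2.76, mostly below the array medians. PR-P2 measured 1.56, 1.61 and 1.56 in the NTC of experiment 2 and 2.79, 2.65 and 2.33 after flg15. It was called (adjusted p = 0.000442, limma), but these NTC values lie below every array median. The same holds for PR1b1 in the NTC of experiment 1. Neither level is shown to be above background, so the size of neither change is settled. The PR-P2 call was lost after quantile normalization, after median centring and without flg15 replicate 1 or 2. PR-P2 also passed the adjusted p alone after SA (log2 change 0.48, adjusted p = 0.0247, limma) and after JA (0.50, adjusted p = 0.0216). All its values in those groups and in the NTC of experiment 1 lie below every array median too. SAMT, a methyltransferase of SA, stayed at or below 2.38 and was not called after any treatment.

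**Figure D3:**
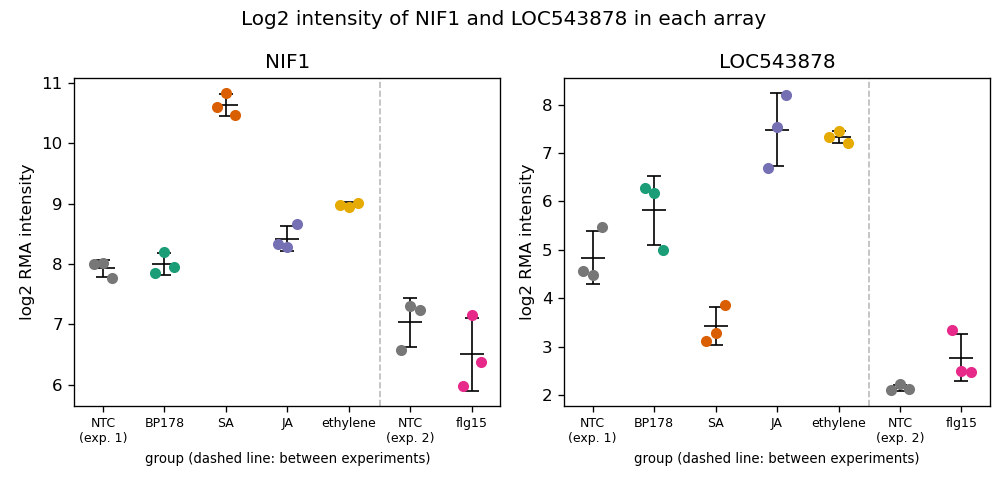
Log2 RMA intensity (y axis) of NIF1 and LOC543878 in each of the 7 groups (x axis), with single arrays as points and the mean ± SD (n = 3) as bars. NIF1 is highest after SA (10.47 to 10.83), where LOC543878 is lowest within experiment 1 (3.11 to 3.87). LOC543878 is highest after JA and ethylene (6.70 to 8.2).

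Probe sets with the most similar pattern were sought among 7067 that carry 1 symbol and span at least 1 on the log2 scale between group means. The span is taken over the means of all 7 groups, so a level gap between the experiments counts towards it. It is therefore not a minimum response to treatment. Likeness is Pearson's r over the 21 arrays, each value taken relative to the NTC mean of its own experiment. It is given as a description, since arrays of a group are not independent of its treatment. The probe sets were picked by this r, so a pattern shared with the gene follows from the choice and is no separate result. NIM1 came closest to LOC101245896, annotated as a cytochrome P450 (r = 0.952), and to LOC101257583, a serine acetyltransferase of cysteine synthesis (r = 0.950). Both were higher after SA and lower after JA by more than NIM1: LOC101245896 had a mean log2 change of 3.20 after SA and -1.27 after JA, and LOC101257583 of 2.86 and -0.82. After BP178, LOC101245896 had 0.75, where NIM1 had 0.04. Glb2, LOC101254819 and LOC101248346 followed at r between 0.937 and 0.946.

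NML1 had closer matches, with r between 0.971 and 0.978 for all 5. LOC101261429, annotated as a HAD-type hydrolase, had a mean log2 change of 2.39 after SA and 0.62 after JA. LOC101260291, a FAD-dependent oxidoreductase, had 5.18 and 1.51. LOC101254416, LOC101253557 and LOC101255519 rank between or beside them. Picked for likeness to NML1, each of the 5 is higher after SA and, by less, after JA, with at most 0.36 after ethylene.

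NML2 had the loosest matches, from r = 0.922 for LOC101253559 down to 0.837 for LOC101267474, with LOC101259643, LOC101262286 and LOC101248894 between. LOC101253559 had mean log2 changes of 0.88 after ethylene, 0.56 after SA and 0.37 after flg15. None of these 5 has a description in the sources used here. Among the members, r was 0.775 for NIM1 and NML1, 0.537 for NIM1 and NML2 and 0.455 for NML1 and NML2. With NIF1 it was 0.882 for NML1, 0.817 for NIM1 and 0.625 for NML2. The treatments of experiment 1 share their NTC arrays, which enters each of these values.

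**Figure D4:**
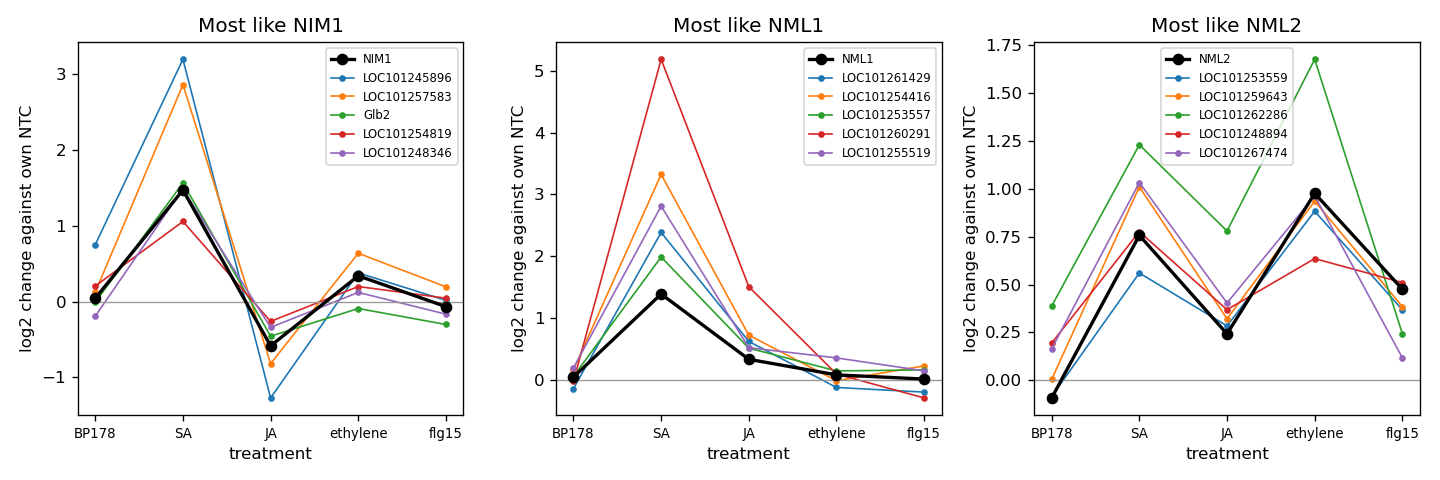
Mean log2 change against the NTC of the same experiment (y axis) after each treatment (x axis) for NIM1, NML1 and NML2 (black) and the 5 probe sets most like each by Pearson's r over 21 arrays. Lines only join the points of a gene. The NIM1 set peaks after SA and dips after JA, the NML1 set peaks after SA, and the NML2 set is raised after both SA and ethylene. Each set was picked for likeness to its gene on these arrays, so the shared shape follows from the choice.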

How the data were processed

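The authors hybridized leaf RNA to 21 arrays and background-adjusted, normalized and summarized the probes by RMA in Expression Console (version not given in the sources used here), and the deposited table holds log2 intensities of 67795 probe sets. It holds no counts, so no depth can be given, and the 3 arrays per group limit the precision. Groups came from the sample titles. All arrays were fitted in limma 3.58.1 (R 4.3.3) with one mean per group, and p-values were adjusted by Benjamini-Hochberg over all probe sets. The methods name Babelomics and the thresholds (FC of 2, adjusted p of 0.05) without the model. The fit was checked on simulated data. Symbols came from the array annotation, where 23194 probe sets have 1 symbol, 170 have several and 44431 have none, and aliases came from RefSeq (gene IDs matched all 3 genes). Descriptions of other genes came from the supplementary annotation of the study.

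The 3 genes, the lists and the tests were chosen with earlier results of these data known. Genes named beside them follow a rule: matched names of the pathway lists and the 5 most similar patterns per gene. NML2 was included by symbol, and its within-array differences were added after the values were seen. The markers named were 4 for leaf and 6 for ripe fruit, with 1 for root (RSI-1, at or below 3.50 in every array, not called after any treatment) and 0 matched for pollen. Psy1, of the fruit list, was called lower after SA, JA and ethylene, and the other 5 were not called after any treatment. Replicate numbers were checked as pairs: over 15 same-numbered pairs the deviations correlated at -0.19 to 0.19, above 0.1 in 4, so they were not taken to pair arrays. Alternatives were other normalizations, filters, priors, weights, thresholds, controls and arrays left out.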

Additional observations from a re-analysis of the deposited data

How the results depend on the processing

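With other settings, 325 values of NIM1, NML1 and NML2 kept direction and call, 11 gained a call and 9 changed sign. Many of these settings (filter, prior, thresholds, replicate number as a block, fewer groups in the fit) leave the log2 change itself as it was. Direction could change only with the other normalizations, array weights or the NTC of both experiments, so the count of kept directions is partly fixed in advance. With 1 array left out, 235 kept both, 14 changed sign, 2 gained a call and 1 lost it. The calls of NIM1 and NML1 after SA held in every alternative run. With 1 array left out their log2 changes were 1.37 to 1.61 and 1.31 to 1.49, and with the NTC of both experiments 1.88 and 1.58. Without a minimum FC, the values that passed were those of NML2 after SA (0.76) and ethylene (0.98), NIM1 after JA (-0.58), NML2 in SA against JA (0.51), SA against BP178 (0.85) and JA against ethylene (-0.73), and NIM1 in JA against ethylene (-0.92) and JA against BP178 (-0.63). NML2 was called after ethylene at 1.04 with median centring and between 0.89 and 1.10 with 1 array left out, where 2 of 6 fits gave a call. With the NTC of both experiments it was called after SA (1.75) and ethylene (1.97), and its change turned to 0.90 after BP178 and -0.51 after flg15, while that of NML1 after flg15 turned to -0.18. These NTC differ in level, as given above.

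All other sign changes were of values near 0 that never passed. Quantile normalization gave -0.00203 for NIM1 and -0.013 for NML1 after BP178, -0.011 for NML1 after ethylene and -0.147 for NML1 in the difference between the peptides. Median centring gave -0.061 for NML1 after flg15, and array weights gave -0.025 for NML1 in ethylene against BP178. With 1 array left out, the values after BP178 were -0.055 to 0.124 for NIM1, -0.021 to 0.132 for NML1 and -0.185 to 0.033 for NML2, and after flg15 -0.283 to 0.060 for NIM1 and -0.078 to 0.090 for NML1. In ethylene against BP178, NML1 ran from -0.048 to 0.111, and in the difference between the peptides NIM1 ran from -0.016 to 0.326 and NML1 from -0.042 to 0.126. SA against JA for NML1 ran from 0.97 to 1.16. The cause of these shifts was not tested.

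Called SA response genes went from 1 to 0 after flg15 with quantile normalization and with median centring. With 1 array left out they were 0 to 1 higher after BP178, SA and flg15 and 0 to 1 lower after SA, and NPR1 partners were 0 to 1 higher after ethylene. With the replicate number as a block (replicate block), no call of NIM1, NML1 or NML2 changed. Each group holds the same replicate numbers, so the block cannot move a group difference and can alter only its p-value. For NIM1 after SA (log2 change 1.47) the adjusted p with the block was 1.31e-06 (limma). Leaving out arrays in the comparison of both NTC was chosen after seeing the data and changed no call (NML2 from -2.06 to -1.85).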
